A study of Peromyscus maniculatus with 16 samples.

Results

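Phosphatidylcholine and phosphatidylethanolamine synthesis in the deer mouse liver was followed through 9 genes, Slc44a1, Chka, Pcyt1a, Etnk1, Etnk2, Pcyt2, Cept1, Pemt and Lpcat3, out of 16910 gene symbols in the count table. The genes were taken by symbol from a list chosen by pathway membership with earlier results of the same counts in view. Which measured values entered the choice is not recorded, so the differences between groups given for these genes are descriptions and support nothing by themselves. RNA was sequenced from 1 liver of each of 16 Peromyscus maniculatus, outbred deer mice kept as closed stocks, aged 10 months at termination. The control group (C) held 6 males on Chow Diet, of which 5 belonged to BW, the P. maniculatus bairdii stock, and 1 to SM2, the P. maniculatus sonoriensis stock. The other 10 animals received High Fat Diet (HFD), a diet rich in fat and sucrose, for 28 weeks and were divided by steatosis. The group on HFD without steatosis (NS) held 5 males, 4 BW and 1 SM2. The group on HFD with steatosis (S) held 5 animals, 3 BW females, 1 BW male and 1 SM2 male. All 3 females were therefore in S, and the female sex cannot be told apart from steatosis among the BW females of that group.

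Phosphatidylcholine and phosphatidylethanolamine are the main phospholipids of animal membranes, and phosphatidylcholine also coats lipid droplets and secreted lipoproteins. In the CDP-choline branch, choline is taken up, phosphorylated by a choline kinase, activated with CTP and joined to diacylglycerol, and a parallel CDP-ethanolamine branch makes phosphatidylethanolamine. Hepatocytes have an additional route, in which Pemt methylates phosphatidylethanolamine to phosphatidylcholine with S-adenosylmethionine as the methyl donor, and the finished phospholipids are remodelled by exchange of their acyl chains.

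In S, the ethanolamine kinase Etnk2, Cept1, which ends both CDP branches, and Pemt were lower than in C, and Chka and Lpcat3 were higher. Pcyt2 and Etnk1 of the CDP-ethanolamine branch had log2 fold changes of 0.36 and 0.18 in S vs C, with 95% intervals that spanned 0. The log2 fold change of S vs C was -1.01 for Etnk2, -0.65 for Pemt, -0.48 for Cept1, 1.06 for Chka and 0.92 for Lpcat3. With the limits of the study, an adjusted p under 0.1 (Benjamini-Hochberg) together with a change of 2-fold or more, edgeR called 2 of the 9 genes, Chka higher and Etnk2 lower, where 4.06% of the 12639 genes tested were called, 3.09% as higher and 0.965% as lower. Without the minimum fold the call held for 5 of the 9 genes, where 10.8% of all genes passed. The genes nearest to the fold limit were Etnk2 at 2.01, Chka at 2.09 and, just outside it, Lpcat3 at 1.90. The median log2 fold change of the 9 genes was 0.18, beside 0.10 over all genes tested. In bulk liver, fewer cells of a type and less RNA per cell cannot be told apart.

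In NS, the same test called 0 of the 9 genes against C, with or without the minimum fold, where 0.0712% and 0.0791% of all genes were called. In S vs NS it also called 0 of the 9 genes, and 0.00791% of all genes passed with the fold limit and 0.00791% without it. Over all genes the unadjusted p-value was under 0.05 for 1048 genes in NS vs C, 1381 in S vs NS and 3010 in S vs C. With the fold limit DESeq2 also called 0 of the 9 genes in both of these comparisons. Without that limit, DESeq2 passed Lpcat3 (adjusted p = 0.00525), Cept1 (0.025) and Etnk2 (0.0322) in NS vs C. In edgeR without NS animal 35930, the adjusted p in NS vs C was 0.056 for Lpcat3 and 0.0814 for Etnk2. Among the 9 genes the unadjusted p-value in NS vs C was under 0.05 for Etnk2, Chka, Pcyt2, Cept1 and Lpcat3, and in S vs NS for Etnk2 and Pemt. When both HFD groups were weighted equally and set against C, a comparison added after the data were seen, 0 of the 9 genes passed with the fold limit and 3 of 9 without it, where 0.894% and 2.67% of all genes did. The 3 genes were Etnk2, Cept1 and Lpcat3.

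**Figure D1:**
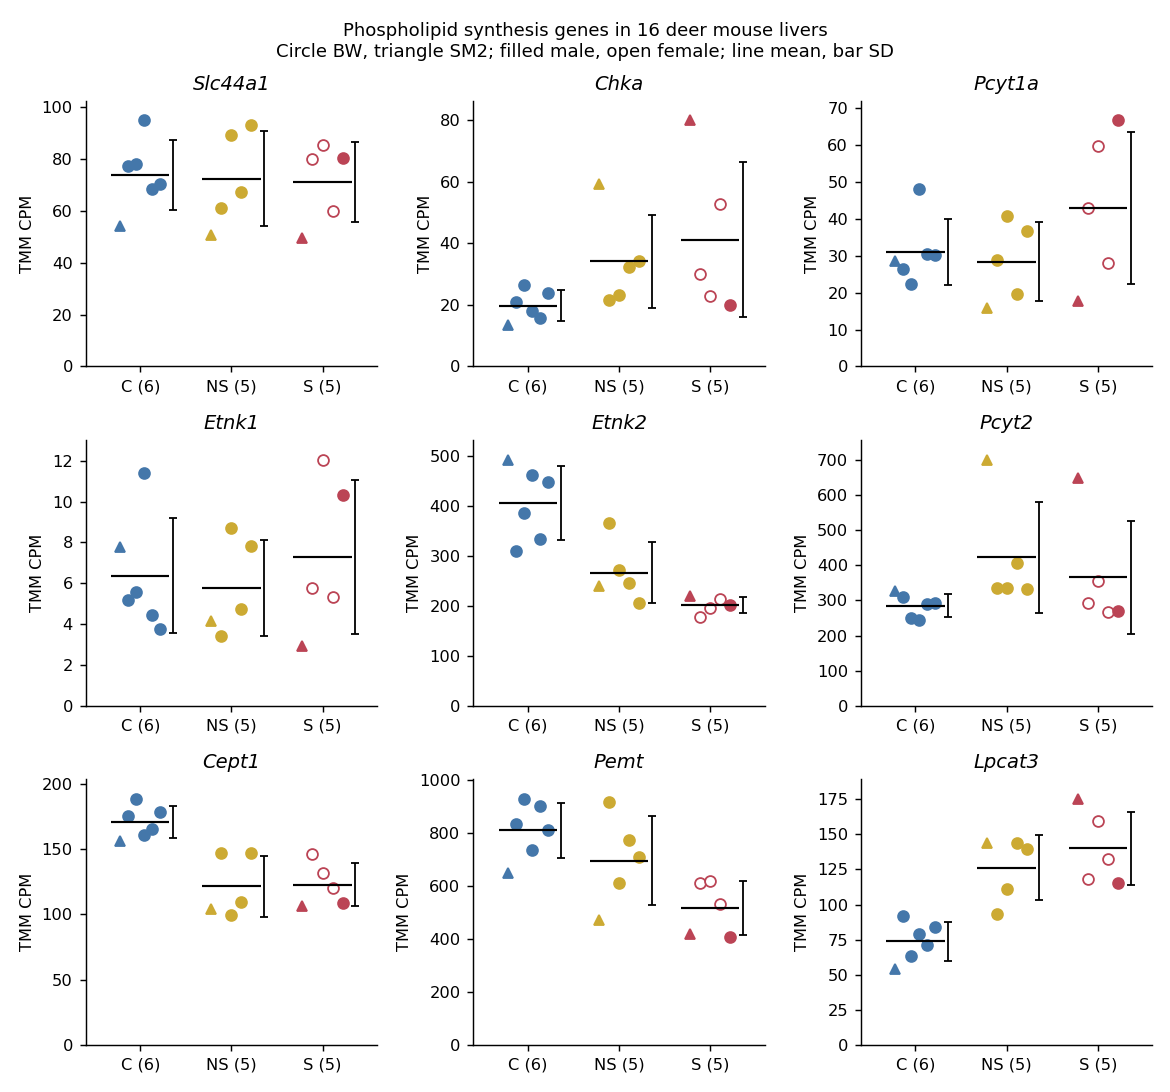
TMM-normalized CPM (library-scaled count) of the 9 genes in each animal, with 1 panel per gene and the groups C (6 animals), NS (5) and S (5) on the horizontal axis. Circles are BW and triangles SM2, open symbols are females, lines are means and bars SD. Lpcat3 in every S and NS animal lies above every C animal, and Cept1 lies below; the SM2 triangle is the highest Pcyt2 and the lowest Slc44a1 of each group.

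The levels below are CPM, the count scaled to a common library size after TMM normalization, which corrects for library size and composition. Transcript lengths were not used, so levels are compared between animals and not between genes. In S vs C the CPM of the groups did not overlap for 4 of the 9 genes, 1 higher and 3 lower, where 1.86% of all genes lay wholly higher and 2.33% wholly lower. In NS vs C it was 3 of the 9, 2 higher and 1 lower, where 0.562% and 0.427% did. In S vs NS all 9 genes overlapped, and 0.427% and 0.752% of all genes did not. All 10 HFD animals lay on 1 side of all 6 C animals for 2 of the 9 genes, 1 on each side, where 0.174% of all genes lay higher and 0.174% lower.

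Choline uptake was represented by Slc44a1, a choline transporter of the plasma membrane and mitochondria. Its CPM in C had a lowest value of 54.0, a median of 73.8 and a highest value of 94.9. In NS the animals had 50.7, 61.2, 67.5, 89.4 and 93.1 CPM, and in S 49.5, 60.1, 79.9, 80.5 and 85.3 CPM. The 3 groups overlapped over almost their whole range, and the lowest animal of each group was the SM2 animal. Its log2 fold change was -0.06 (SE 0.19, 95% interval -0.45 to 0.34) in S vs C and -0.03 (SE 0.19, interval -0.42 to 0.37) in NS vs C.

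Chka, choline/ethanolamine kinase alpha, phosphorylates choline at the entry of the CDP-choline branch. In C its CPM ranged from 13.4 to 26.6, with a median of 19.5. The NS animals had 21.7, 23.2, 32.4, 34.2 and 59.4 CPM, and the S animals 20.1, 23.0, 30.2, 52.6 and 79.9 CPM. The 3 values of 52.6 CPM or more stood above all others, and they belonged to the SM2 animals of S (79.9) and NS (59.4) and to S animal 35990 (52.6), while the SM2 animal of C had the lowest value of all. The lower animals of both HFD groups lay within the range of C, so the groups overlapped. Fitted over all animals, the log2 fold change was 1.06 in S vs C (SE 0.34, adjusted p = 0.0794), 0.79 in NS vs C (SE 0.34, adjusted p = 0.594) and 0.27 in S vs NS (SE 0.35, interval -0.47 to 1.02). The S vs C value of Chka was 0.68 (adjusted p = 0.182) without S animal 10880, of SM2, and 0.59 (adjusted p = 0.173) in the BW animals alone. With stock as a covariate it was 0.895 (adjusted p = 0.0728), short of 2-fold. Its adjusted p was 0.1 or more in 9 of 21 alternative settings, among them those without C animal 10876 (0.121), 35972 (0.108), 35975 (0.113), 36001 (0.15) or 36007 (0.122) and without S animal 35990 (0.127).

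Pcyt1a encodes the enzyme that makes CDP-choline from phosphocholine and CTP, the rate-limiting step of that branch. Its C animals ranged from 22.3 to 48.0 CPM, with a median of 29.4. In NS the values were 15.9, 19.6, 28.7, 36.8 and 40.8 CPM, and in S 17.7, 28.1, 42.9, 59.7 and 66.6 CPM. The S animals spread over 3.77 times from the lowest to the highest, beyond the range of C on both sides, and the lowest animal in both HFD groups was SM2. With a log2 fold change of 0.47 in S vs C (SE 0.31, adjusted p = 0.372) and -0.12 in NS vs C (SE 0.32, adjusted p = 0.955), the differences between groups were within the spread of the animals.

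Ethanolamine is phosphorylated by the ethanolamine kinases Etnk1 and Etnk2. Etnk2 had CPM from 309 to 492 in C, with a median of 417. The NS animals had 205, 240, 245, 272 and 366 CPM, and the S animals 177, 195, 202, 214 and 219 CPM. Every S animal lay below every C animal, whereas 1 NS animal, 35930, lay inside the range of C and the NS and S ranges overlapped. The S animals were also the closest to each other, at 201 ± 16.7 CPM (SD, n = 5), against 266 ± 60.8 CPM (n = 5) in NS and 405 ± 73.9 CPM (n = 6) in C.

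The log2 fold change of Etnk2 was -1.01 in S vs C (SE 0.16, adjusted p = 0.0125) and -0.61 in NS vs C (SE 0.16, adjusted p = 0.299). The direct comparison of S with NS gave -0.40 (SE 0.17, interval -0.75 to -0.05, adjusted p = 0.408). In S vs C the adjusted p stayed between 1.23e-06 and 0.057 in all 21 alternative settings, and the fold was under 2 in 9 of them, where the log2 fold change nearest to 0 was -0.95. It fell short of 2-fold without C animal 10876 (-0.95), 35998 (-0.97) or 36007 (-0.98) and without S animal 35982 (-0.998) or 35955 (-0.97). The female S animals had 177, 195 and 214 CPM and the male ones 202 and 219 CPM, all of them below C, and the fit of the males alone gave -0.95 (adjusted p = 0.057).

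Etnk1, the other ethanolamine kinase, was measured at 24 to 79 counts per animal, where counting alone gives an error of 20.4% at the lowest count. Its C animals ranged from 3.77 to 11.4 CPM, its NS animals from 3.40 to 8.68 and its S animals from 2.92 to 12.1. No group stood apart, and the log2 fold change was 0.18 in S vs C (SE 0.37, interval -0.60 to 0.97). The SD between animals was 2.82 CPM on a mean of 6.36 in C and 3.78 CPM on a mean of 7.28 in S. The part of depth in this spread was not tested.

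Pcyt2, the enzyme that makes CDP-ethanolamine, had 243 to 328 CPM in C, with a median of 290.4. The NS animals had 333, 336, 336, 406 and 701 CPM, and the S animals 267, 270.1, 294, 354 and 648 CPM. All NS animals lay above all C animals, 3 of them by a narrow margin, while 3 of the 5 S animals lay within the range of C. The highest value of each group came from its SM2 animal. It had a log2 fold change of 0.57 in NS vs C (SE 0.24, adjusted p = 0.591) and 0.36 in S vs C (SE 0.24, adjusted p = 0.37). Without SM2 animal 10880 the S vs C value fell to 0.05, and without SM2 animal 10865 the NS vs C value fell to 0.31.

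Cept1, choline/ethanolamine phosphotransferase 1, joins CDP-choline or CDP-ethanolamine to diacylglycerol at the end of both branches. In C it spanned 156 to 189 CPM, with a median of 171. The NS animals had 99.8, 104, 110, 147 and 147 CPM, and the S animals 106, 109, 120, 131 and 146 CPM. All 10 HFD animals lay below all 6 C animals, and the HFD groups covered nearly the same range. The log2 fold change was -0.48 in S vs C (SE 0.14, adjusted p = 0.0562), -0.49 in NS vs C (SE 0.14, adjusted p = 0.315) and 0.01 in S vs NS (SE 0.14, interval -0.28 to 0.31). The S vs C difference lost an adjusted p under 0.1 in 4 of 21 settings, namely without S animal 36016 (0.114), without C animal 35975 (0.119) or 36007 (0.112), and without S animals 35990 and 36016 together (0.191). In a RefSeq annotation of another deer mouse assembly the Cept1 gene overlaps Dennd2d and Dram2, and the strand setting of the counting is not given in the sources used here, so reads of these neighbours cannot be separated from those of Cept1.

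Pemt, phosphatidylethanolamine N-methyltransferase, had 648.5 to 929 CPM in C, with a median of 824. In NS the animals had 470.5, 612, 708, 773 and 918 CPM, and in S 408, 419.9, 530.3, 609.9 and 619.8 CPM. Every S animal lay below every C animal, and the NS animals spread over both ranges. In the fit, the log2 fold change was -0.65 in S vs C (SE 0.17, adjusted p = 0.0497), -0.22 in NS vs C (SE 0.17, adjusted p = 0.773) and -0.43 in S vs NS (SE 0.18, interval -0.81 to -0.05, adjusted p = 0.415). Within S the lowest Pemt belonged to the males, BW animal 36016 (408 CPM) and SM2 animal 10880 (419.9 CPM), and all 3 females were above them. Pemt was lower in SM2 than in BW (log2 difference -0.47), and 36016 had the lowest total count. Sex cannot be told apart from stock and library among these animals. The fit of the male animals alone, with only 36016 and 10880 in S, gave -0.97 for S vs C (adjusted p = 0.0474). The adjusted p of S vs C was 0.1 or more in 3 settings, without S animal 36016 (0.109), without C animal 35975 (0.11) and without S animals 35990 and 36016 together (0.175). Pemt overlaps 1 long non-coding RNA in the same RefSeq annotation.

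Lpcat3, lysophosphatidylcholine acyltransferase 3, puts polyunsaturated acyl chains into phosphatidylcholine and phosphatidylethanolamine. In C it had 53.8 to 91.7 CPM, with a median of 75.1. The NS animals had 93.2, 111, 140, 144 and 144 CPM, and the S animals 115, 118, 132, 159 and 175 CPM. Every HFD animal, with or without steatosis, lay above every C animal. Its fitted log2 fold change was 0.92 in S vs C (SE 0.17, adjusted p = 0.0144), 0.78 in NS vs C (SE 0.17, adjusted p = 0.146) and 0.15 in S vs NS (SE 0.17, interval -0.22 to 0.52). Both HFD groups together gave 0.85 (SE 0.15, adjusted p = 0.0153). In S vs C the adjusted p was at most 0.0407 over 21 settings, and the value nearest to 0 was 0.76, in the BW animals alone.

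**Figure D2:**
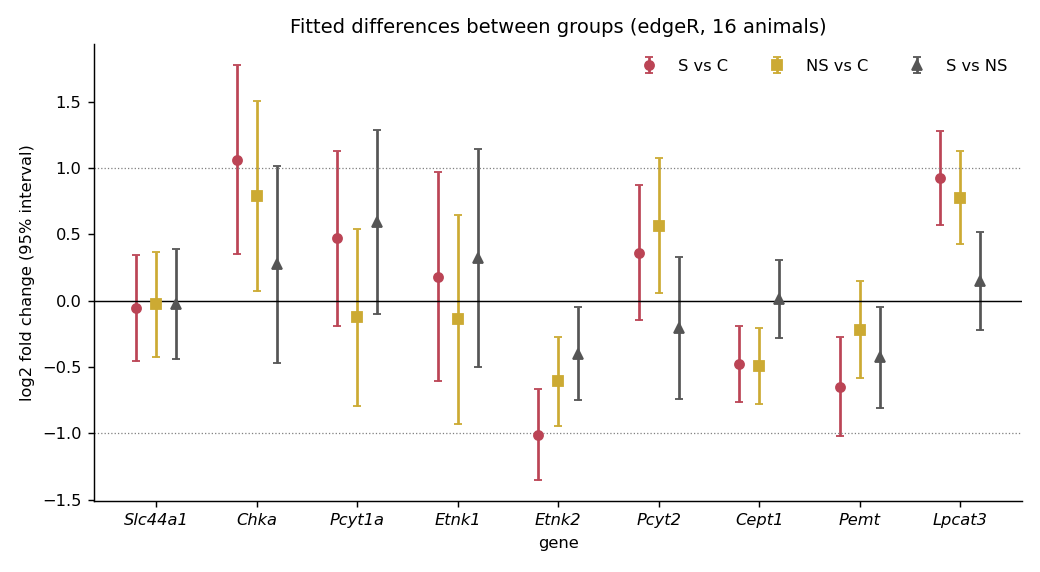
Log2 fold change of the 9 genes with its 95% interval from the edgeR fit of 16 animals, for each pair of groups; dotted lines mark a 2-fold difference. Etnk2, Cept1 and Pemt lie below 0 and Chka and Lpcat3 above it in S vs C, and the S vs NS interval of all genes but Etnk2 and Pemt spans 0.

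S vs C and NS vs C share the 6 C animals, so their values are given side by side only. Lpcat3 had 0.92 and 0.78, Cept1 -0.48 and -0.49, and Chka 1.06 and 0.79, S first. Etnk2 had -1.01 and -0.61 and Pemt -0.65 and -0.22, while Pcyt1a had 0.47 and -0.12. None of the S vs NS differences in these genes passed the test, and their smallest adjusted p was 0.408. A p-value that misses the threshold does not show that S and NS were alike, and the widest S vs NS interval, that of Etnk1, ran from -0.50 to 1.14.

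The balance between genes of the same liver does not depend on the scaling of the library. The ratio of Lpcat3 to Cept1 counts was 0.336 to 0.522 in C, 0.635 to 1.39 in NS and 0.809 to 1.65 in S. No HFD liver reached down to the C range. Every HFD liver lay above C in Lpcat3 and below C in Cept1, so this separation was fixed by those values and adds no evidence to them. The ratio of Chka to Etnk2 counts was 0.0272 to 0.0691 in C, 0.0593 to 0.247 in NS and 0.0996 to 0.365 in S, where S and C were apart and NS overlapped both. The ratio of Pcyt2 to Pemt counts was 0.27 to 0.505 in C, 0.366 to 1.49 in NS and 0.481 to 1.54 in S, which overlapped. These 3 ratios were chosen after the values had been seen.

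Each group held 1 SM2 animal, so the stocks could be compared with the group kept in the fit. SM2 livers had more Pcyt2, with a log2 difference from BW of 0.81 (SE 0.15, adjusted p = 0.00143), and less Slc44a1, at -0.59 (SE 0.15, adjusted p = 0.0158). Pemt (-0.47, SE 0.15, adjusted p = 0.0481) and Pcyt1a (-0.79, SE 0.30, adjusted p = 0.0908) were also lower in SM2. None of the 9 genes differed 2-fold between stocks, where 10.8% of all genes passed the test with that fold and 21.8% without it. Etnk2, Cept1 and Lpcat3, with log2 differences of 0.12, -0.23 and 0.07, did not pass. Chka had 0.75 (SE 0.30, adjusted p = 0.109), a mean over the C animal, which was low, and the HFD animals, which were high. With stock as a covariate the S vs C values were -1.01 for Etnk2, 0.91 for Lpcat3 and 0.90 for Chka. Only 3 SM2 animals were sequenced, and other differences between them and the BW animals were not tested.

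Some of the genes also varied together from liver to liver within groups. The log2(CPM + 1) of each gene was centred on its group mean, and all 36 pairs of the 9 genes were correlated over the 16 animals, with p-values from 100000 permutations within groups and adjusted over the 36 pairs. Both Pearson's r and Spearman's rho passed an adjusted p of 0.05 for 4 pairs, and r did so for 6 pairs in all. Livers rich in Pcyt1a were poor in Chka (r = -0.83, permutation p = 0.00163, adjusted p = 0.0196; rho = -0.79, permutation p = 0.00474, adjusted p = 0.0427). The r was -0.67 without the SM2 animals 10880 and 10865, which lay farthest out in Chka, and -0.74 in the BW animals.

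Pcyt1a and Slc44a1 rose and fell together (r = 0.81, permutation p = 0.00109, adjusted p = 0.0196; rho = 0.81, permutation p = 0.00161, adjusted p = 0.02), with r = 0.76 without the 2 animals farthest out and 0.74 in BW. Etnk1 and Slc44a1 had r = 0.71 (permutation p = 0.00555, adjusted p = 0.0349) and rho = 0.79 (permutation p = 0.00138, adjusted p = 0.02), with 0.63 without the 2 farthest animals and 0.87 in BW. Etnk1 and Pcyt1a had r = 0.81 (permutation p = 0.00134, adjusted p = 0.0196), and rho = 0.70 (permutation p = 0.00764), which missed the threshold at an adjusted p of 0.055. Slc44a1, Pcyt1a and Etnk1 thus formed a set in which each pair had r of at least 0.71.

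Pemt and Cept1, both lower in S, were also correlated within groups (r = 0.76, permutation p = 0.00499, adjusted p = 0.0349; rho = 0.81, permutation p = 0.00167, adjusted p = 0.02). Their r was 0.68 without animals 10865 and 35930 and 0.70 in the BW animals. Pcyt2 and Slc44a1 had r = -0.70 (permutation p = 0.00582, adjusted p = 0.0349), which rested on the SM2 animals, as r was -0.40 without 10880 and 10865 and -0.16 in BW. No correlation of Etnk2 with the other 8 genes passed the threshold, and its strongest r was -0.47, with Lpcat3 (permutation p = 0.0935, adjusted p = 0.242; rho = -0.36, permutation p = 0.187, adjusted p = 0.518). Against the log2 total count of the library, 0 of the 9 genes passed at an adjusted p of 0.05, and the largest r was that of Etnk1, at -0.61 (permutation p = 0.0382, adjusted p = 0.343). Slc44a1 (r = -0.43, -0.50 in BW) and Pcyt1a (-0.42, -0.50 in BW) followed it, so the 3 genes of the set above had the most negative r with depth, and the part of depth in their covariation was not tested.

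**Figure D3:**
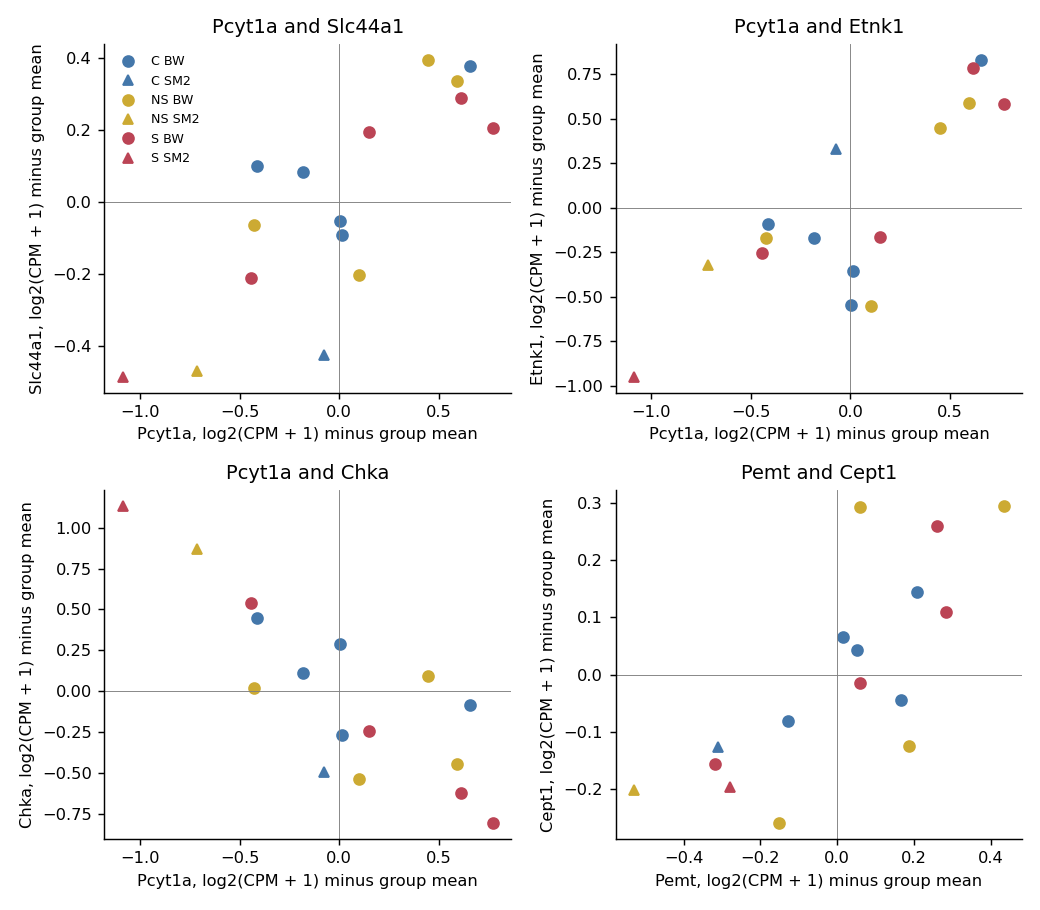
Log2(CPM + 1) minus the group mean for 4 pairs of genes over the 16 animals, coloured by group, with circles for BW and triangles for SM2. Slc44a1 and Etnk1 rise with Pcyt1a (r = 0.81 each), Chka falls with it (r = -0.83), and Cept1 rises with Pemt (r = 0.76).

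The genes whose log2 CPM most resembled that of Chka over the 16 animals, among all genes tested, were Rtel1 (r = 0.93), Tab1 (0.89), Zswim4 (0.88), Ehmt2 (0.87) and Srsf5 (0.87). Their highest values were in SM2 animal 10880 or 10865, as was that of Chka. In the BW animals alone the r ranged from 0.69 for Srsf5 to 0.87 for Zswim4. The 16 points share the 3 groups and the stocks, and no p-value is attached to them.

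Of 57 other genes of phospholipid metabolism in 10 lists, 50 were in the count table and 48 could be tested. In S vs C, 1 of the 48 was called higher and 2 lower, where 3.09% and 0.965% of all genes were. In NS vs C, 1 was called lower, where 0.0712% of all genes were called in either direction. In S vs NS it was 0, where 0.00791% of all genes were called. The median log2 fold change of the 48 genes in S vs C was 0.04, beside 0.10 over all genes. Chpt1, Pisd, Bhmt and Chdh were listed but were not in the count table under these symbols, so they could not be analysed.

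The 3 called genes were a regulator and enzymes of methyl metabolism. Srebf1, a transcription factor of fatty acid synthesis, had 42.4 to 264 CPM in C. In S it had 521, 559, 626, 1011 and 1501 CPM, all above C, and in NS 237, 525.6, 711, 762 and 1491 CPM. Its log2 fold change was 2.50 in S vs C (SE 0.49, adjusted p = 0.0198) and 2.32 in NS vs C (SE 0.49, adjusted p = 0.14). The highest animals were SM2 in both HFD groups.

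Gnmt, glycine N-methyltransferase, consumes S-adenosylmethionine, the methyl donor that Pemt also uses. In C it had 1556 to 4806 CPM. In NS it had 305, 383, 482, 616 and 1046 CPM, and in S 230.2, 391, 629.6, 630.2 and 771 CPM. Every HFD liver lay below every C liver, with a log2 fold change of -2.29 in S vs C (SE 0.38, adjusted p = 0.0125) and -2.19 in NS vs C (SE 0.38, adjusted p = 0.0494). The NS vs C adjusted p rose to 0.195 without NS animal 35963, 0.181 without 35987, 0.154 without 35937 and 0.112 without C animal 35972. In S vs NS the value was -0.10 (SE 0.37, interval -0.88 to 0.69).

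Sardh, sarcosine dehydrogenase, demethylates the sarcosine that Gnmt produces and that choline oxidation also yields. Its C animals ranged from 297 to 936 CPM, its NS animals from 289 to 375 and its S animals from 284 to 329.9. The lowest C animal, 36001, lay within the range of the HFD animals, and the other 5 C animals lay above all of them. The log2 fold change was -1.02 in S vs C (SE 0.23, adjusted p = 0.0281) and -0.95 in NS vs C (SE 0.23, adjusted p = 0.22). The S vs C fold was under 2 without C animal 35998 (-0.86) or 10876 (-0.90) and without S animal 35955 (-0.999) or 35990 (-0.99), and in the males alone the adjusted p was 0.119. Gde1 and Aldh7a1, chosen here because they passed an adjusted p of 0.1 in S vs C without the fold limit, had log2 fold changes of -0.90 and -0.71. Aldh7a1, Dmgdh and Sardh, the 3 tested enzymes of the choline oxidation list, of which Dmgdh was also named after its values had been seen, had -0.65 (adjusted p = 0.0915), -0.97 (0.0593) and -0.98 (0.0235) when both HFD groups were set against C.

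Chkb, the kinase related to Chka, had a log2 fold change of -0.29 in S vs C (SE 0.19, adjusted p = 0.369). Selenoi, which makes phosphatidylethanolamine from CDP-ethanolamine, had -0.41 (SE 0.20, adjusted p = 0.212). The phosphatidylserine synthases Ptdss1 and Ptdss2 had -0.01 and 0.04 (SE 0.21 and 0.13). Abcb4, the exporter of phosphatidylcholine into bile, had -0.48 (SE 0.19, adjusted p = 0.139), and Etnppl, which breaks down phosphoethanolamine, had -0.60 (SE 0.46, adjusted p = 0.447). None of these 6 genes passed the test in any pair of groups.

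**Figure D4:**
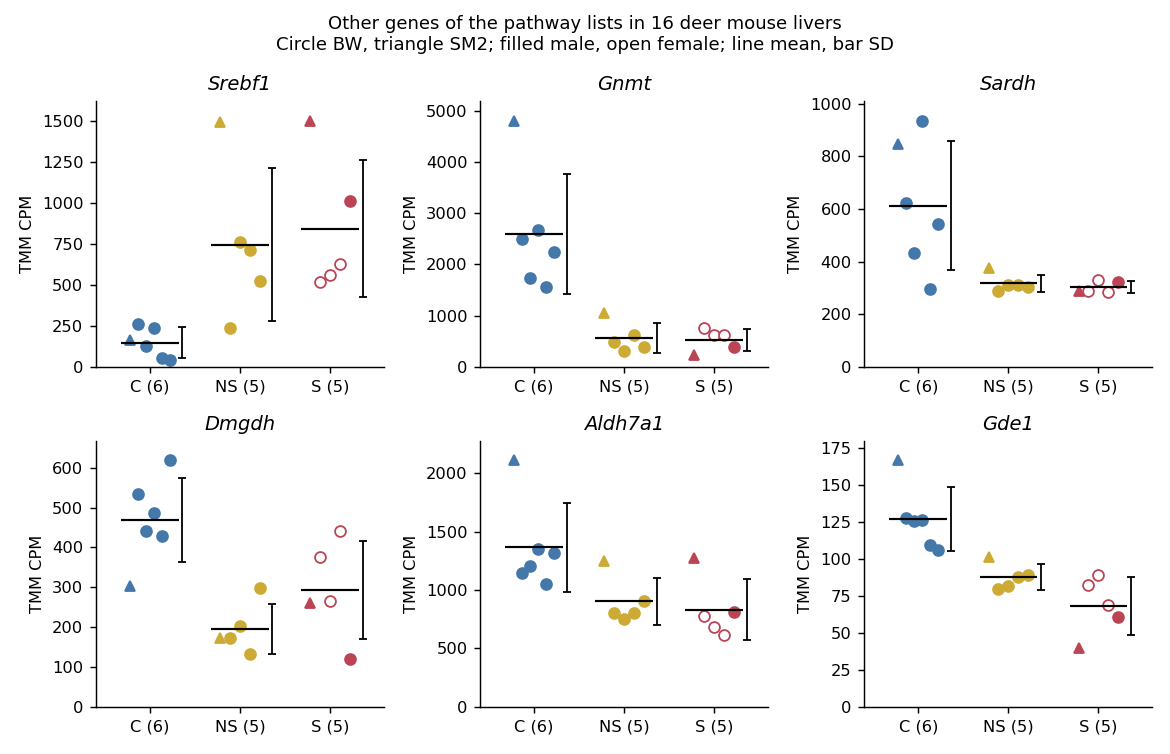
TMM-normalized CPM of 6 other genes of the pathway lists in each animal, drawn as for the 9 genes (circle BW, triangle SM2, open female, line mean, bar SD). Gnmt in all HFD animals, 230.2 to 1046 CPM, lies below C, from 1556 to 4806 CPM, and Srebf1 in S, from 521 CPM, lies above C, up to 264 CPM.

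Coordination of each gene with the rest of the transcriptome was measured by Pc, the composite correlation that the study devised. Each gene was correlated (Pearson's r) with all others in either group, and its Pc is the r between these sets of coefficients. A Pc near 1 means that a gene kept its partners, and a negative Pc that the signs of its correlations were on balance inverted. Each r here rests on 5 or 6 animals, and CPM by total count was used. Below -0.2 lay 7.32% of all genes when S was set against NS, 6.05% for S vs C and 5.73% for NS vs C.

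In NS vs C, 2 of the 9 genes had a Pc below -0.2, Chka at -0.34 (jackknife SE 0.35 over animals) and Etnk2 at -0.28 (SE 0.35). For both other pairs of groups it was 0 of 9. The Pc of Chka was 0.39 in S vs NS and -0.19 in S vs C, and that of Etnk2 0.07 and -0.05. Lpcat3 had a Pc of -0.16 for S vs C, 0.001 for NS vs C and 0.15 for S vs NS. On this scale the other 6 genes had a Pc of at least 0.22 for each pair of groups, and Slc44a1 had 0.51 (SE 0.24) for S vs NS, 0.37 (SE 0.19) for S vs C and 0.44 (SE 0.21) for NS vs C. In the same order the median over all genes was 0.166, 0.105 and 0.154. With 1 animal left out, the NS vs C Pc of Chka reached 0.002 and that of Etnk2 0.10, and in the BW animals alone Chka had 0.02, so that neither low value stood beyond its error. Leaving out 1 animal also took Etnk1 to -0.05 (S vs C), Pcyt1a to -0.09 (NS vs C), Pcyt2 to -0.07 (S vs NS) and Cept1 to -0.03 (NS vs C). On the counts as deposited, 1 of the 9 genes was below -0.2 in NS vs C, Chka at -0.26, with Etnk2 at -0.08. There the S vs C values were 0.10 for Chka, 0.20 for Lpcat3, 0.19 for Etnk2 and -0.18 for Etnk1, each of the opposite sign to that on CPM. In NS vs C, Etnk1, Pcyt1a and Slc44a1 had 0.09, 0.09 and 0.13 on the deposited counts.

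**Figure D5:**
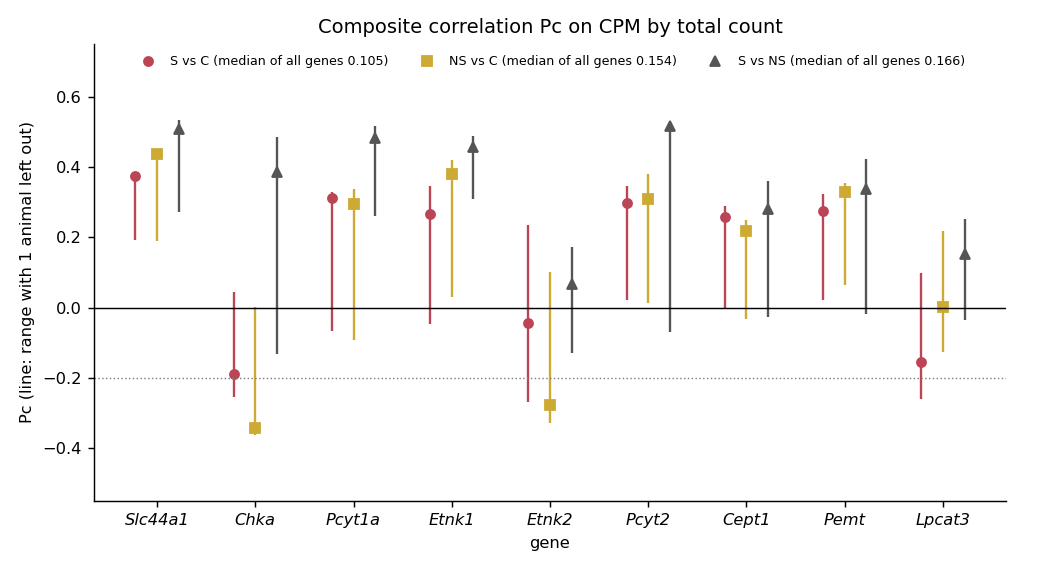
Pc of the 9 genes on CPM by total count for each pair of groups, with a line from the lowest to the highest value when 1 animal was left out; the dotted line is -0.2. Chka and Etnk2 lie below -0.2 in NS vs C only, and their lines reach 0 or above.

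Total counts were between 4640733 and 11349971 per animal, the lowest in S animal 36016. That library also had a summed level of stellate cell markers of 3453 CPM, where the median of S was 326 and C had 289 to 533. Most of this sum was collagen, Col1a1 at 2057 CPM and Col1a2 at 1059 CPM. In the other animals these reached at most 17.0 CPM (C animal 36001) and 47.0 CPM (S animal 35990). S animal 35990 had the highest macrophage markers, 627 CPM, where C had 166 to 401. Of 7 hepatocyte markers in the table, 1 was higher and 3 were lower in S vs C at an adjusted p under 0.1. Of all genes tested, 10.8% passed that limit in either direction. None of the hepatocyte markers was at or under 3 counts in every animal. Their summed level was 43900.0 to 56170.0 CPM in C, 43380.0 to 67480.0 in NS and 34600.0 to 52670.0 in S. At the same limit 1 of 6 lymphocyte markers was higher and, of 8 stellate markers, 2 were higher and 1 lower in S vs C, while 0 macrophage, endothelial, bile duct or adipocyte markers passed. Of the 6 adipocyte markers, Adipoq, Plin1, Lep and Cfd had at most 3 counts in every animal. The summed level of the list therefore came almost wholly from Cidec and Fabp4. It was 61.6 to 217.3 CPM in C, 104.1 to 220.7 in NS and 130.3 to 190.7 in S. The adipocyte markers that could be tested had a median log2 fold change of 0.845 in S vs C. The part of these markers in the results was not tested. Leaving out S animals 35990 and 36016 together gave S vs C values of -1.04 for Etnk2 (adjusted p = 0.038) and 1.03 for Lpcat3 (0.0354), the genes then called, 1.17 for Chka (0.127), -0.56 for Pemt (0.175) and -0.42 for Cept1 (0.191).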

How the data were processed

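Livers of 16 deer mice (C 6, NS 5, S 5) were analysed, with groups, stock and sex taken from the sample labels. Per the labels and the study's methods, the authors prepared directional paired-end libraries, mapped them to the HU_Pman_2.1 assembly with STAR 2.7.2, used featureCounts of Subread to count the uniquely mapped reads, and deposited raw counts. The strand setting and the conversion to symbols are not given in the sources used here. The 9 genes and all lists were chosen with earlier results of these data known. The labels give each animal its own number, so each was 1 replicate.

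The quasi-likelihood test of edgeR 4.0.16 (R 4.3.3) was run on the counts with TMM factors, in 1 fit of 16 animals without covariates. Tested were 12639 of 16910 genes, those that reached 0.5 CPM in 1 animal or more. Genes were called at a Benjamini-Hochberg adjusted p under 0.1 over all genes and a fold of at least 2. The SE of a log2 fold change was its size divided by the square root of F. Pc and permutations used Python 3.11.15, numpy 2.4.6, pandas 2.3.3 and scipy 1.17.1, and figures matplotlib 3.10.9. Named were the 9 genes, genes of the other lists called for any pair of groups, Chkb, Selenoi, Ptdss1, Ptdss2, Abcb4 and Etnppl in any case, and the 5 genes most like Chka, the gene with the largest change in S vs C. Gde1, Aldh7a1 and Dmgdh were named after their values had been seen. Symbols of all 9 genes matched RefSeq genes of the assembly HU_Pman_BW_mat_3.1, used for overlapping genes only.

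On simulated counts for S vs C, edgeR recovered 197 of 200 changed genes among 12639 with 6 false calls. For S vs NS it recovered 198 with 12 false calls, and with none changed in NS vs C it called 0. The simulation gave all genes the same spread, held no differences of stock or sex, and changed only well-counted genes by more than 2-fold. It checks that the test runs properly and does not give its error rates on these livers or for changes near 2-fold. The results were recomputed with each animal left out, with DESeq2 1.42.0, with RLE size factors, with filterByExpr or no filter, with a term for sex or for stock, in BW or male animals alone, in fits restricted to the pair of groups, at other thresholds, and with other values for Pc. Leaving out S animals 35990 and 36016 and the comparison of HFD with C were added after the data were seen. Total counts of 4640733 to 11349971 per animal limit the precision of low genes such as Etnk1. Histology and body weight were not analysed here.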

Additional observations from a re-analysis of the deposited data

Results flagged for a closer look

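By Dixon's test, 5 of 54 groups of 5 or 6 animals, formed by 18 genes and the 3 groups, held an animal far from the others, where chance flags about 1 in 20, or 2.7. Pcyt2 stood at 701 CPM in NS animal 10865, beside 333 to 406 in the others of that group, and at 648 CPM in S animal 10880, beside 267 to 354. Both are the SM2 animal of their group. Pcyt1a was at 48.0 CPM in C animal 35998, beside 22.3 to 30.4 in the other C animals. Gnmt was at 4806 CPM in C animal 10876, the SM2 animal, beside 1556 to 2679. Sardh was at 375 CPM in NS animal 10865, again SM2, beside 289 to 312.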

How the results depend on the processing

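The log2 fold changes of Etnk2, Lpcat3, Chka, Pemt, Cept1, Pcyt1a, Pcyt2, Srebf1, Gnmt and Sardh in S vs C kept their direction in all 21 alternatives. Of the 9 genes, 2 were called in S vs C, and 1 with filterByExpr, with sex or stock as a covariate, in males alone and at an adjusted p under 0.05. The number was 0 in the BW animals, 5 without the minimum fold and 0 to 2 with 1 animal left out (0 without C animal 10876 or 36007), and in HFD vs C it was 3 without the minimum fold. DESeq2 called 53 genes in NS vs C, 71 in S vs NS and 240 in HFD vs C, against 9, 1 and 113 with edgeR. S vs NS calls were 191 with sex as a covariate, 17 with stock, 18 in BW, 156 in males, 0 in the fit of the groups compared and 0 without 35990 and 36016; HFD vs C calls were 228 with sex and 231 with stock, and NS vs C calls 29 with stock. Because all 3 females were in S, the level of S with sex as a covariate or in males rested on animals 36016 and 10880 alone. These settings are therefore not separate checks. Without the minimum fold, 1359 genes passed in S vs C and 338 in HFD vs C, with 6 other pathway genes in each. At an adjusted p under 0.05, 209 genes passed for S vs C, 5 for NS vs C and 42 for HFD vs C, and at 0.1 188 for S vs C without 35990 and 36016. Other pathway genes called in NS vs C were 3 with DESeq2, sex or stock, 2 in the fit of the groups compared and 0 to 2 with 1 animal left out (0 without 35963). With 1 animal left out, calls ranged from 190 (without C animal 36007) to 572 in S vs C, from 2 (without NS animal 35963) to 29 (without NS animal 35930) in NS vs C, from 1 to 15 (without S animal 10880) in S vs NS and from 36 to 236 in HFD vs C. The cause of these shifts was not tested.

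Changes of sign concerned differences that had not passed the test. In S vs C, Ptdss1 had 0.005 with filterByExpr, 0.069 with sex or in males and 0.033 in BW, and Etnppl 0.162 with sex or in males. In S vs NS, Pcyt2 had 0.12 and Cept1 -0.175 with sex or in males, Pcyt2 0.032 without 35990 and 36016, Gnmt 0.063 with stock and 0.452 in BW, and Sardh 0.026 in BW. Etnk1 had 0.021 in BW in NS vs C, and in HFD vs C -0.048 with sex or in males, -0.016 with stock and -0.017 without 35990 and 36016. With 1 animal left out, S vs C ranged from -0.073 to 0.426 for Etnk1, -0.131 to 0.051 for Slc44a1, -0.131 to 0.094 for Ptdss1 and -0.024 to 0.11 for Ptdss2. NS vs C ranged from -0.331 to 0.104 for Etnk1, -0.29 to 0.042 for Pcyt1a and -0.135 to 0.077 for Slc44a1. S vs NS ranged from -0.105 to 0.566 for Chka, -0.505 to 0.055 for Pcyt2, -0.057 to 0.092 for Cept1, -0.133 to 0.088 for Slc44a1, -0.13 to 0.594 for Srebf1 and -0.269 to 0.248 for Gnmt. HFD vs C ranged from -0.106 to 0.265 for Etnk1 and -0.117 to 0.043 for Slc44a1. The NS vs C Pc of Chka was 0.02 in BW, and that of Etnk2 ranged from -0.328 to 0.101 with 1 animal left out. With 5 or 6 animals a group and 24 counts at the lowest, small differences of Etnk1 could have been missed. The smallest detectable difference was not tested. No paired analysis was possible because the labels carry no replicate numbers shared between groups.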
